A study of Mus musculus with 6 samples.

Results

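Goblet cells are the mucus-secreting cells of the gut lining, and 10 genes for their secreted proteins and regulators are described here: Muc2, Clca1, Tff3, Fcgbp, Agr2, Spdef, Zg16, Spink4, Klk1 and Atoh1. Members were the probe sets whose symbol in the platform annotation was one of these names. Each of the 10 genes had 1 probe set, so 10 of 22206 transcript probe sets, or 10 of 19505 named genes, were members. The arrays, 6 in number, carried RNA labelled as colon crypt RNA of C57BL/6J mice. Of these, 3 came from control mice, titled PBS, and 3 from mice gavaged with MBELN, exosome-like nanoparticles from mulberry bark, on each of 7 days. The labels give the MBELN dose as 10 x 10E+09 particles in 100 µl, and the same protocol text stands on every sample, the controls included, which are told from the treated mice by title and treatment label. All mice were of the same strain, and the labels name no age, sex or engineered allele. No label says whether each array is a separate mouse, so the spread between arrays may be technical in part. Arrays of the same group also differed in tissue markers, described below. Standard errors and p-values measure the spread between arrays alone, with these marker differences included. Values are the deposited ones, 1 per probe set and array, read as log2, and the number of arrays limits their precision.

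The mucus of the large bowel is built on the gel-forming mucin Muc2, a large glycoprotein that goblet cells fold in the endoplasmic reticulum, sugar-coat in the Golgi and pack into granules. Released mucin unfolds into a net, in which the other secreted proteins described here are bound or act on it. The fate of goblet cells is set in the crypt by Atoh1, a transcription factor that starts the secretory lineage and is held down by Notch signalling. Spdef, an ETS-family transcription factor that acts after Atoh1, drives goblet cell maturation.

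Several arrays stood apart from their labels. Smell and pheromone receptor genes, which gut is not expected to use, served as a gauge of dim signal. The 95th percentile of their 1412 probe sets, called the receptor level, lay between 3.99 and 4.44 in the 6 arrays, and a value below it is called dim. Of 14 gut epithelial marker genes, 14 lay above it in each PBS array, with list medians of 16.70 to 17.64. In the arrays labelled MBELN 1, 2 and 3, the gut epithelial median was 5.14, 3.42 and 5.24, and 9, 1 and 8 of the 14 genes were above the receptor level. Heart muscle markers, 12 in all, had medians of 18.43 and 18.70 in MBELN 1 and MBELN 3, against 3.53 to 4.04 in the other 4 arrays. Neuronal markers, 11 in all, had a median of 15.56 in MBELN 2 and of 3.55 to 4.36 elsewhere. Every difference between MBELN and PBS given here therefore sets arrays with gut epithelial markers against arrays in which heart or neuronal markers are high, and the part of these tissue markers in each difference cannot be told apart from that of the treatment. The arrays also differed in their hybridisation controls, transcripts added before hybridisation. Means of these controls were 9.79 to 10.09 in PBS 2, MBELN 1 and MBELN 3 and 8.43 to 8.98 in the other 3 arrays.

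**Figure D1:**
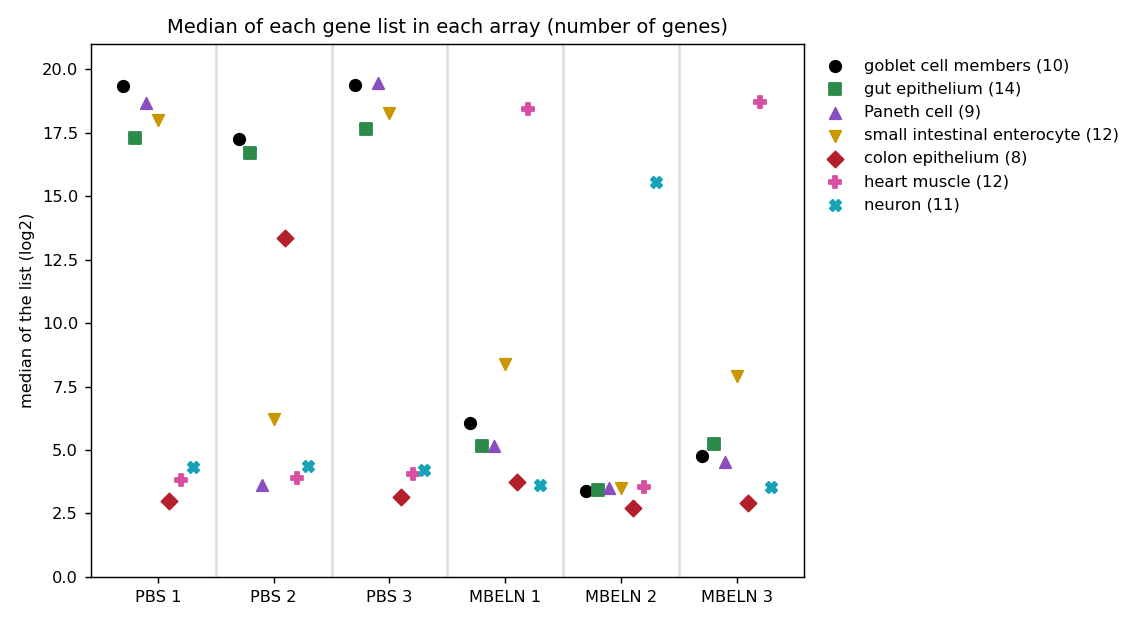
Median log2 value of the 10 goblet cell genes and of 6 marker lists (y axis) in each array (x axis), with the number of genes in brackets. The goblet cell median was 17.27 to 19.38 in PBS and 3.37 to 6.07 in MBELN, and the heart muscle and neuronal medians were high in the MBELN arrays alone.

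The series was designed to find genes that differ after MBELN, and all 10 goblet cell genes fell. In each of them, every array labelled MBELN lay below every PBS array. The fitted fall was larger than 11 log2 units in 7 genes that were above the receptor level in at least 1 MBELN array. Agr2, Spdef and Atoh1 were dim in all MBELN arrays, and only lower bounds of their falls from the PBS mean can be given. These bounds allow for the dim MBELN values but not for the spread of the PBS arrays. With limma and Benjamini-Hochberg adjustment over 22206 probe sets, 5.18% of all probe sets passed an adjusted p of 0.05 with 3.76% lower and 1.42% higher. That excess of lower calls was not stable: 2887 probe sets were lower and 2870 higher with array weights, and 1626 lower and 2112 higher without MBELN 2. Groups that did not overlap, with MBELN lower, were seen in 13.4% of probe sets. The median difference was -12.57 over the 10 genes, unchanged when the 3 genes dim in all MBELN arrays were set to their bounds, and 0.09 over all probe sets. The genes were chosen with earlier results of these arrays known, so their count is a description. In RNA from bulk tissue, fewer goblet cells, less RNA per goblet cell and less gut epithelium in the sample cannot be told apart. Gut epithelial markers had medians of 16.70 to 17.64 in PBS and 3.42 to 5.24 in MBELN.

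**Figure D2:**
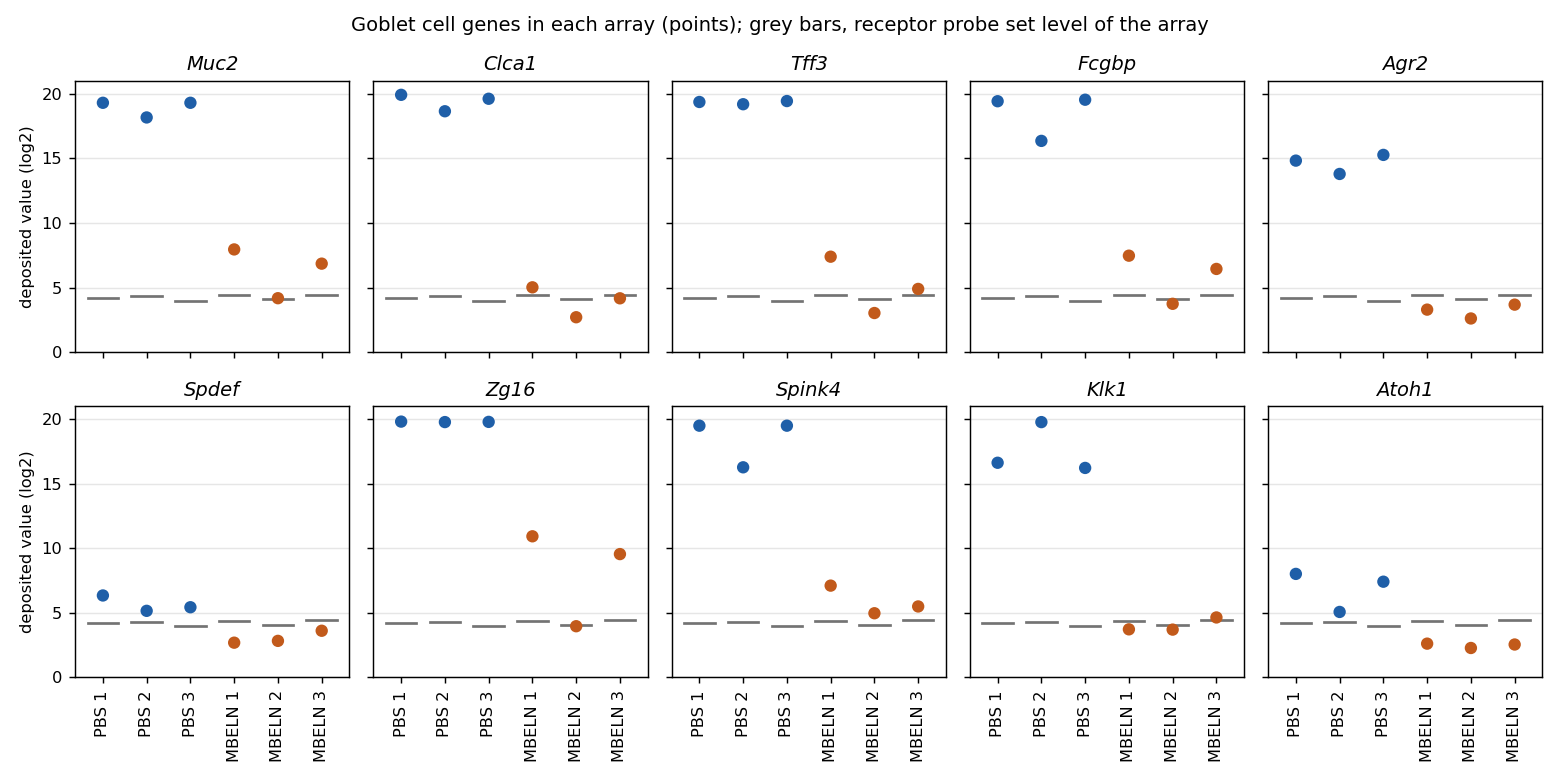
Deposited log2 value (y axis) of each goblet cell gene in PBS 1 to 3 (blue) and MBELN 1 to 3 (orange), with the receptor probe set level of each array as a grey bar. Every blue point lies above its bar and above every orange point, with Spdef and Atoh1 nearest to the bars.

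Muc2, the gel-forming mucin itself, read 19.31, 18.18 and 19.31 in PBS 1, 2 and 3. In MBELN 1, 2 and 3 its values were 7.95, 4.17 and 6.85. All 3 MBELN values were above the receptor level, that of MBELN 2 only just, and the groups were far apart. Muc2 fell by 12.61 ± 1.02 (SE, n = 3; limma, adjusted p = 0.0032).

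Fcgbp, a large protein that binds to the mucin net, read 19.44, 16.36 and 19.55 in the PBS arrays and 7.47, 3.74 and 6.44 in the MBELN arrays. PBS 2 was the low control, and MBELN 2 was the sole MBELN array below the receptor level. Fcgbp fell by 12.57 ± 1.30 (SE, n = 3; limma, adjusted p = 0.0072). Without PBS 1 the adjusted p rose to 0.0490, still under the threshold.

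Clca1, a secreted metalloprotease that processes mucus, read 19.93, 18.66 and 19.63 in PBS, against 5.02, 2.70 and 4.17 in MBELN. MBELN 1 was its only MBELN value above the receptor level. Clca1 fell by 15.44 ± 0.69 (SE, n = 3; limma, adjusted p = 0.00080). With PBS values at the top of the scale and most MBELN values dim, the size of this difference is uncertain.

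Zg16 encodes a lectin that binds bacteria and keeps them from the epithelium. Its values were 19.83, 19.79 and 19.80 in PBS 1, 2 and 3, a range of 0.037. In MBELN 1 and MBELN 3 it read 10.94 and 9.56, well above the receptor level, and in MBELN 2 it read 3.97, just below it. Zg16 fell by 11.65 ± 1.81 (SE, n = 3; limma, adjusted p = 0.0245), with an error set by the spread of the MBELN arrays. The call ended without PBS 1 (limma, adjusted p = 0.120), PBS 2 (0.0569), PBS 3 (0.119) or MBELN 3 (0.0835), and without MBELN 2 the gene fell by 9.56 with an adjusted p of 0.00029.

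Tff3, a small trefoil peptide that stabilises mucus and aids repair of the surface, read 19.38, 19.20 and 19.45 in the PBS arrays. In MBELN 1, 2 and 3 it read 7.39, 3.03 and 4.89, with MBELN 2 below the receptor level. Tff3 fell by 14.24 ± 1.09 (SE, n = 3; limma, adjusted p = 0.0027).

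Spink4, a Kazal-type peptide of goblet cell granules, read 19.51, 16.29 and 19.51 in PBS, against 7.12, 4.98 and 5.50 in MBELN. Like Muc2 it stayed above the receptor level in all 3 MBELN arrays. Spink4 fell by 12.57 ± 1.08 (SE, n = 3; limma, adjusted p = 0.0038).

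Klk1, tissue kallikrein, a serine protease that cuts kininogen, read 16.64, 19.79 and 16.24 in PBS 1, 2 and 3. PBS 2 was its high control, in contrast to the other 9 genes. The MBELN values were 3.73, 3.71 and 4.65, of which that of MBELN 3 alone was above the receptor level. Klk1 fell by 13.52 ± 1.01 (SE, n = 3; limma, adjusted p = 0.0025).

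Agr2, a disulfide isomerase that mucin folding depends on, read 14.83, 13.80 and 15.28 in PBS. Its MBELN values, 3.29, 2.60 and 3.68, were all dim, so only a bound can be given. The fall came to at least 1285-fold (limma, adjusted p = 0.00080).

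The regulators were measured close to the dim end. Spdef read 6.36, 5.17 and 5.44 in PBS 1, 2 and 3. Its MBELN values of 2.70, 2.84 and 3.62 were all dim. The lowest PBS value was 1.54 above the highest MBELN value. Spdef was at least 2.54-fold lower, with a fitted difference of -2.60 ± 0.45 (SE, n = 3; limma, adjusted p = 0.0351). Atoh1 read 8.03, 5.08 and 7.42 in PBS, against 2.62, 2.29 and 2.56 in MBELN, again all dim. Atoh1 was at least 5.79-fold lower, with a fitted difference of -4.35 ± 0.80 (SE, n = 3; limma, adjusted p = 0.0407).

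Neither regulator's call held throughout. Leaving out PBS 1, PBS 3, MBELN 1 or MBELN 3 gave Spdef an adjusted p (limma) of 0.120, 0.135, 0.132 and 0.0768. For Atoh1 it was 0.137, 0.173, 0.138 and 0.144 in the same order. The other 7 genes, Muc2, Clca1, Tff3, Fcgbp, Agr2, Spink4 and Klk1, passed with any 1 array left out. Of all probe sets, 1.7% to 16.8% passed in each of these fits. When the level of the hybridisation controls entered the fit as a block, the calls of Spdef (limma, adjusted p = 0.0618) and Atoh1 (0.0519) ended and the other 8 stood. Within the arrays of higher level, where PBS 2 stands alone against MBELN 1 and MBELN 3, the differences ran from -2.01 for Spdef to -15.60 for Klk1. Among the 3 remaining arrays, with MBELN 2 alone on its side, they ran from -3.06 for Spdef to -17.08 for Clca1. All 10 genes passed within each level, where 18.8% and 32.6% of all probe sets also passed. These fits have 1 residual degree of freedom and assume the lone array, which also has its own tissue markers, to vary like the others.

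**Figure D3:**
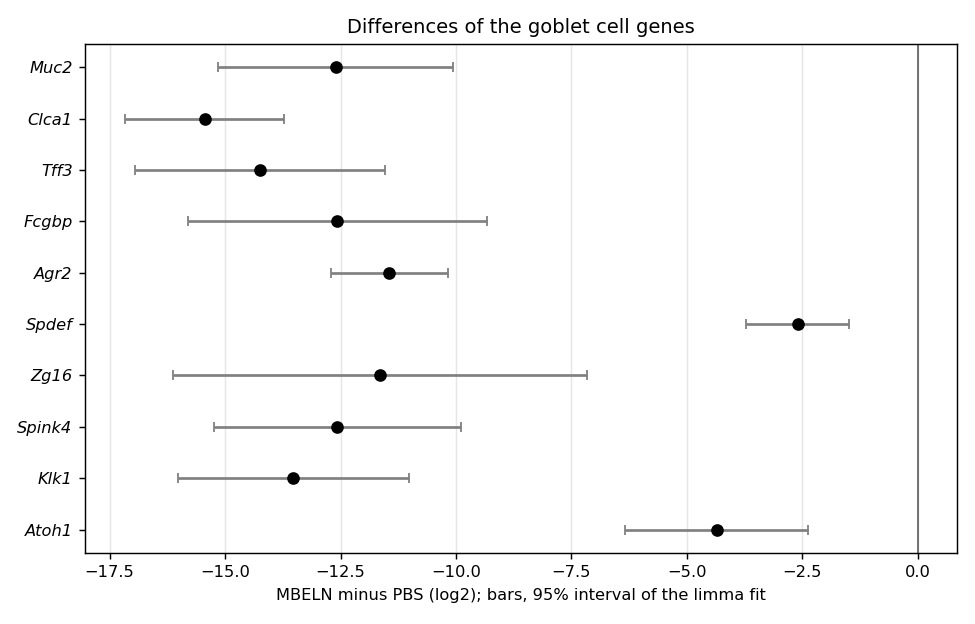
Fitted difference of MBELN minus PBS in log2 units (x axis) for each goblet cell gene (y axis), with the 95% interval of the limma fit. All 10 intervals lie below 0, from -3.73 to -1.48 for Spdef and from -17.17 to -13.72 for Clca1, and the interval of Zg16, -16.14 to -7.16, is wide.

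The PBS arrays differed from each other for these genes too. PBS 2 was the lowest of the 3 PBS arrays in 9 of 10 genes and the highest in 1, Klk1. Over all transcript probe sets, PBS 2 was the lowest in 35.9% and the highest in 42%. PBS 1 and PBS 3 lay within 1 log2 unit of each other in all 10 genes, with gaps from 0 for Muc2 and Spink4 to 0.91 for Spdef. The range over the PBS arrays was 3.55 for Klk1, 3.22 for Spink4, 3.19 for Fcgbp and 2.95 for Atoh1. These are folds of 11.7, 9.35, 9.12 and 7.71, and the median range over all probe sets was 0.77. A range wider than that of each of these 4 genes was found in 4.29%, 5.24%, 5.35% and 6.17% of all probe sets, in the same order. Agr2, Clca1, Spdef and Muc2 had ranges of 1.48, 1.27, 1.19 and 1.14, which 21.4% to 31.4% of probe sets exceeded.

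**Figure D4:**
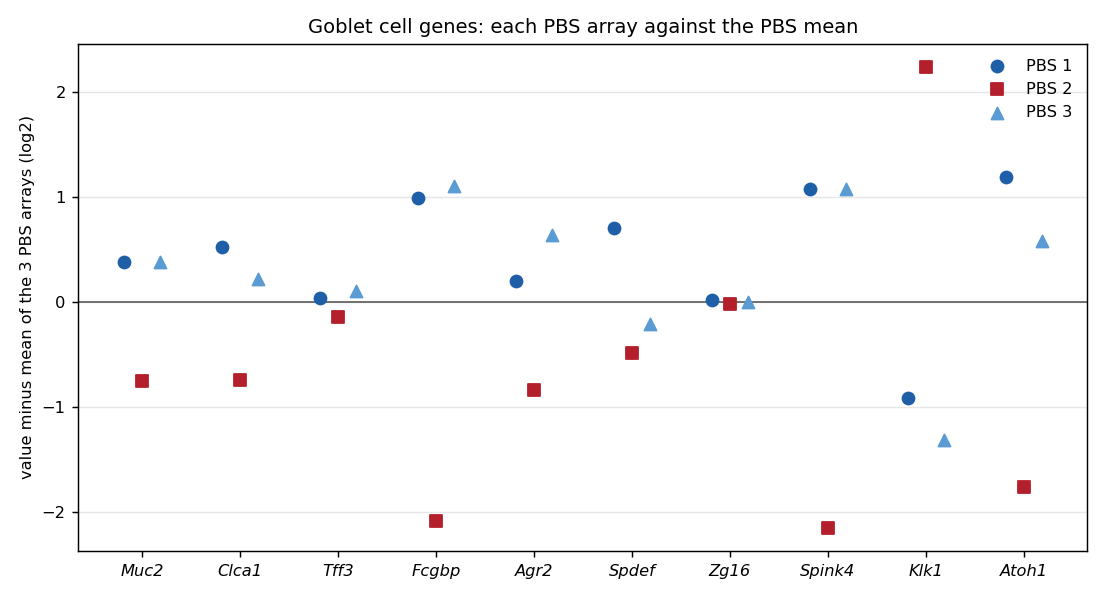
Value of each PBS array minus the mean of the 3 PBS arrays in log2 units (y axis) for each goblet cell gene (x axis). PBS 2 (red squares) sits below PBS 1 and PBS 3 in 9 genes, by the widest margin in Spink4 and Fcgbp, and above them in Klk1.

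Narrow ranges near the top of the scale say little. Tff3 and Zg16 had PBS ranges of 0.25 and 0.037, and every PBS value of both was above 19, with 19.93 the highest value on any array. Of 87 probe sets above 19 in both PBS 1 and PBS 3, 24 had identical values in both arrays, to the last digit deposited. Among the 22104 probe sets at or below 19 in both arrays, 30 did. Muc2 and Spink4 were among those with identical values. Differences between PBS arrays, and the falls from PBS to MBELN, may thus be understated for the 7 genes with a PBS value above 19, Klk1 included, while Agr2, Spdef and Atoh1 lay below that part of the scale. Spread within the PBS group may be understated too, so standard errors and p-values of these 7 genes may be too small. The same may hold where MBELN values were dim, as in Agr2, Spdef and Atoh1.

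Other cell lists differed among the same PBS arrays. Paneth cell genes, 9 measured, had medians of 18.68, 3.64 and 19.45 in PBS 1, 2 and 3, and all 9 were lowest in PBS 2. Small intestinal enterocyte genes, 12 measured, had medians of 18.02, 6.23 and 18.30, and all 12 were lowest in PBS 2. Of these, Lct was dim in all 3 PBS arrays, at 3.34, 3.18 and 3.54. Colon epithelial genes, 8 measured, had medians of 2.996, 13.35 and 3.14, and 6 of the 8 were highest in PBS 2. Mettl7b was lowest there, at 7.86, 6.20 and 8.96 in PBS 1, 2 and 3, and Aqp4 differed little, at 6.03, 6.63 and 6.95. Car1, a carbonic anhydrase of colonic surface cells, read 4.09, 19.79 and 5.29, and Hoxb13, a homeobox gene of the hindgut, read 2.56, 10.09 and 2.69. Muc2, Clca1, Tff3 and Zg16 read above 18 in all 3 PBS arrays, so those with small intestinal and those with colonic markers both held goblet cell transcripts. The part of these markers in the PBS 2 values of Klk1, Fcgbp, Spink4 and Atoh1 was not tested.

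Promoter sequence was at hand for 6 of the 10 genes in the RefSeq promoter table of GRCm38.p6. Muc2, Fcgbp and Agr2 are shown as genes that were lowest in PBS 2, and Klk1 because its order was the opposite. All 10 genes fell and 9 of 10 were lowest in PBS 2, Spdef and Atoh1 among them, whose windows are not shown. Each line gives the 250 bases before the start site, 5′ to 3′ on the gene's strand, which is the plus strand in all 4. The windows are chr7:141690090-141690339 for Muc2, chr7:28070986-28071235 for Fcgbp, chr12:35992675-35992924 for Agr2 and chr7:44225110-44225359 for Klk1. Capitals mark CAGCTG, an E-box of the kind that Atoh1 and its relatives bind, and GGAT, the core that Spdef prefers, on either strand, so that ATCC is marked too.
Muc2: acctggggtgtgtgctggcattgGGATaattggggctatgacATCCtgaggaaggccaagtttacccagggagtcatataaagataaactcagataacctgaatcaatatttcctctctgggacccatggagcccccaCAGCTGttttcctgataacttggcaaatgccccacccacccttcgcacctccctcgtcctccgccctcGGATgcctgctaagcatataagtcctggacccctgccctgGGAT
Fcgbp: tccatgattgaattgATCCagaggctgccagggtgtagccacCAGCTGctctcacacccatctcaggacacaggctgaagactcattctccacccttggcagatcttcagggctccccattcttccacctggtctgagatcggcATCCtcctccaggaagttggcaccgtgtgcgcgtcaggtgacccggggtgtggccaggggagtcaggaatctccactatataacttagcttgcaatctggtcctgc
Agr2: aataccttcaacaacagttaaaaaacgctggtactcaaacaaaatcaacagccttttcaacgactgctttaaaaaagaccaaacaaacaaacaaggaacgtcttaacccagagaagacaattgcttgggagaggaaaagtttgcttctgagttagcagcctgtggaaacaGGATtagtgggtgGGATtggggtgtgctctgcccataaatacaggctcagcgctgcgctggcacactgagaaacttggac
Klk1: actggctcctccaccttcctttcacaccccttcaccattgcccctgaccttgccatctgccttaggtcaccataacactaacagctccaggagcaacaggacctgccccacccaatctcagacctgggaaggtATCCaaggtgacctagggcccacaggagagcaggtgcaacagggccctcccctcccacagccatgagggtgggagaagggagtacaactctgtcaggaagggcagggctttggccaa

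CAGCTG was present in the windows of Muc2, 112 bases before the start site, and Fcgbp, 208 bases before it. It was not found in those of Agr2, Spdef, Klk1 and Atoh1, so genes lowest in PBS 2 were seen both with and without it. Of 32851 promoter windows of this length, 13% held it. GGAT was present in 5 of the 6 member windows, with 4 matches in Muc2, 2 in Fcgbp, 2 in Agr2, 5 in Spdef, 1 in Klk1 and 0 in Atoh1. As 74.1% of all windows held GGAT, its presence sets none of these genes apart. The motifs do not overlap each other in these windows, and a match is a stretch of letters, not a shown binding site.

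Within the arrays labelled MBELN, goblet cell transcripts were not evenly low. Above the receptor level were 6 of the 10 genes in MBELN 1, 2 in MBELN 2 and 6 in MBELN 3. MBELN 2 was the lowest MBELN array in 9 genes, all but Spdef, and MBELN 1 was the highest in 7. These ranks include dim values. Agr2, Spdef and Atoh1 were dim in all MBELN arrays, and Klk1 was dim in MBELN 1 and MBELN 2, at 3.73 and 3.71. Over all probe sets, MBELN 2 was the lowest in 46.2% and MBELN 1 the highest in 29.3%. The gap from MBELN 1 down to MBELN 2 was wide in Zg16, from 10.94 to 3.97, and in Tff3, from 7.39 to 3.03. Gut epithelial markers had a like order, with MBELN 2 lowest in 11 of 14 and MBELN 1 highest in 11 of 14. Lgals4, a galectin of the gut epithelium, read 9.30, 2.98 and 7.33 in MBELN 1, 2 and 3, and Epcam, an epithelial adhesion molecule, 7.12, 2.47 and 7.54. Small intestinal enterocyte genes had medians of 8.37, 3.50 and 7.93, and Fabp2, a fatty acid binding protein of enterocytes, read 13.14, 2.60 and 11.22. Their part in the goblet cell values of these arrays was not tested.

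Further genes of mucus and of goblet cells were taken from 5 lists by role. Of 64 measured genes, 20 fell and 0 rose, beside 3.76% lower and 1.42% higher among all probe sets, while 44 missed the threshold (limma). An unadjusted p under 0.05 (limma) was found in 12 of these 44 and in 32 of the 64, beside 3953 of all 22206 probe sets. In 35 of the 64, the MBELN arrays all lay below the PBS arrays, against 13.4% of all probe sets. The median difference was -2.16, or -1.63 with 22 genes at their bounds, and 8 of the 64 were dim in all 6 arrays. Leaving out PBS 1, 2 or 3 changed the count of 20 to 7, 22 and 9, and leaving out MBELN 1, 2 or 3 changed it to 8, 24 and 6. In each of these fits, 1.7% to 16.8% of all probe sets passed. Calls of 6 genes, Dmbt1, Reg4, Lypd8, Guca2a, Elf3 and Hepacam2, stood with any 1 array left out. Beside all 5 lists, the gut epithelial median was 16.70 to 17.64 in PBS and 3.42 to 5.24 in MBELN.

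**Figure D5:**
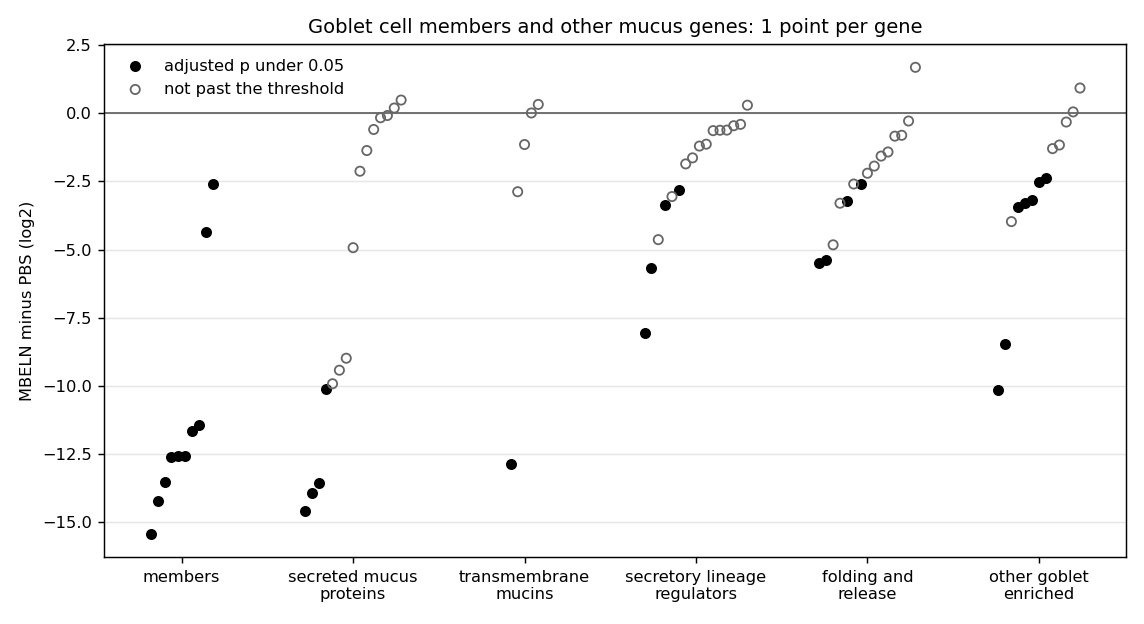
Difference of MBELN minus PBS in log2 units (y axis) for each goblet cell gene and each gene of the 5 role lists (x axis), 1 point per gene, filled where the adjusted p was under 0.05. The 10 members and 20 of the 64 other genes are filled, and every filled point lies below 0.

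Among 15 secreted mucus proteins, 4 fell and 11 did not pass. Dmbt1, a scavenger receptor protein of mucus, fell by 13.93 ± 0.74 (SE, n = 3; limma, adjusted p = 0.0011) and Reg4, a secreted lectin, fell by 10.13 ± 0.87. Lypd8, which keeps flagellated bacteria off the epithelium, fell by 13.58 ± 1.04. Guca2a, which encodes guanylin, was dim in all MBELN arrays and at least 9433-fold lower. The gastric and airway mucins Muc5ac and Muc5b and the gastric trefoil gene Tff1 were dim in all 6 arrays, at 2.34 to 3.43.

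Some genes of the 5 lists split the PBS arrays more sharply than any of the 10 genes did. The following were picked after their values had been seen. Tgm3, a transglutaminase that crosslinks mucus, read 3.37, 19.12 and 3.45 in PBS 1, 2 and 3 and 3.24 to 4.32 in MBELN. Wfdc2, a secreted protease inhibitor, read 3.81, 7.80 and 3.11 in PBS, and Rep15, a Rab15 effector of goblet cells, 5.66, 9.99 and 6.19. All 3 were high in PBS 2, as was Klk1. Itln1, intelectin, read 18.48, 3.44 and 19.45, and Retnlb, a goblet cell peptide induced by microbes, read 8.10, 2.30 and 3.76, high in PBS 1 alone. Of these 5 genes, none passed the test of MBELN against PBS.

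Of 5 transmembrane mucins measured, 1 fell. Muc13, a mucin of the apical membrane, read 19.75, 19.74 and 19.69 in PBS, against 9.26, 2.80 and 8.502 in MBELN, and fell by 12.87 ± 1.73 (SE, n = 3; limma, adjusted p = 0.0159). Its call ended without PBS 1 (limma, adjusted p = 0.0880), PBS 3 (0.0854) or MBELN 3 (0.0573). Muc4 differed by -2.88 and did not pass (limma, adjusted p = 0.133), and Muc15 and Muc20 were dim throughout.

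Of 16 regulators of the secretory lineage, 4 fell and 12 did not pass. Elf3, an epithelial ETS factor, fell by 8.06 ± 0.69 (SE, n = 3; limma, adjusted p = 0.0038). Foxa1 and Foxa3, forkhead factors of gut endoderm, fell at least 15.0-fold and 3.59-fold, and Creb3l4, a membrane-bound bZIP factor, fell at least 3.97-fold. The calls of these last 3 ended without PBS 1, MBELN 1 or MBELN 3, with adjusted p of 0.0573 to 0.107, and those of Foxa3 and Creb3l4 also without PBS 3 (limma, 0.133 and 0.0788). Xbp1, a factor that enlarges the secretory apparatus, read 13.48, 13.44 and 13.03 in PBS, against 11.96, 10.57 and 12.52 in MBELN, and did not pass (limma, adjusted p = 0.204). Notch1 and Neurog3 were dim in all PBS arrays.

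Of 15 genes for mucin folding and granule release, 4 fell and 11 did not pass. Ern2, the IRE1 beta stress sensor of mucous cells, was at least 6.52-fold lower and Nlrp6, a sensor that goblet cells use in granule release, at least 19.4-fold lower. Ern1, the widely expressed relative of Ern2, fell by 2.58 ± 0.38 and Stxbp2, a granule fusion protein, by 5.37 ± 0.93 (SE, n = 3; limma, adjusted p = 0.0218 and 0.0347). These 4 calls ended without PBS 1, PBS 3, MBELN 1 or MBELN 3, with adjusted p of 0.0591 to 0.155, and that of Stxbp2 also without PBS 2 (limma, 0.0617). Sytl2 and Syt7, which also serve exocytosis outside the gut, were highest in MBELN 2, at 11.09 and 11.91, against 4.799 to 8.89 in the other 5 arrays. The neuronal median was 15.56 in MBELN 2.

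Of 13 other goblet-enriched genes, 7 fell and 6 did not pass. Hepacam2, an immunoglobulin-family adhesion molecule, read 13.46 ± 0.87 in PBS (SD, n = 3) and was at least 569-fold lower. Capn9, a calpain of the gut, was at least 4.34-fold lower, Galnt12, which starts O-glycans on mucins, at least 5.40-fold and Smim6 at least 3.13-fold. Without MBELN 1 or MBELN 3 the calls of Capn9, Galnt12 and Smim6 ended, with adjusted p of 0.0573 to 0.0876, and without PBS 1 the adjusted p was 0.0506 to 0.106. The call of Galnt12 also ended without PBS 3 (limma, adjusted p = 0.0702). Bcas1 read 8.63 to 9.32 in PBS, against 5.74, 12.62 and 4.95 in MBELN 1, 2 and 3, and did not pass (limma, adjusted p = 0.787). Bcas1 is also a gene of oligodendrocytes, and the median of 6 glial markers was 10.69 in MBELN 2 and 2.84 to 3.20 elsewhere.

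Relatives of the 10 genes could share probe sequence, and which transcripts a probe set can bind was not tested. Of 11 measured Klk1b kallikreins, close copies of Klk1, 7 were highest in PBS 2, and 4 were dim in all PBS arrays. Klk1b5 read 6.84, 9.85 and 7.07 in PBS 1, 2 and 3 and Klk1b22 read 4.32, 7.07 and 4.70, with PBS 2 highest as for Klk1, although PBS 1 lay below PBS 3 in both and above it in Klk1. Of the 11, 0 passed with limma and 2 had an unadjusted p under 0.05, beside 3953 of all 22206 probe sets. The 6 measured relatives of Clca1 were all lowest in PBS 2, as Clca1 was, although Clca2 was dim in all PBS arrays. Clca3b read 15.95, 9.94 and 17.26 in PBS. From the PBS mean it was at least 1077-fold lower in MBELN, the sole one of the 6 to pass (limma, adjusted p = 0.0433). Its lowest PBS value was 5.55 log2 units above its highest MBELN value. Its adjusted p rose to 0.183 with PBS 1 left out, 0.141 with PBS 3, 0.143 with MBELN 1 and 0.146 with MBELN 3. Clca4b read 18.67, 9.64 and 17.66, a far wider gap than that of Clca1. Spink1, a trypsin inhibitor related to Spink4, fell by 10.93 ± 1.03 (SE, n = 3; limma, adjusted p = 0.0052). It read 16.08, 18.30 and 15.39 in PBS, with PBS 2 high, the reverse of Spink4.

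To describe what else followed the pattern, each gene's 6 values were set against the median of the 10 members, each centred on its own mean. Pearson's r was computed over the 6 arrays for 4817 non-member genes with a range of at least 4 log2 units, and 100 of them reached 0.99. The values share the gap between the groups, which alone gives a high r. The 5 named genes with the highest r, 0.998 to 0.999, were Maoa, Cdhr5, Cdh17, Tmem253 and Adtrp. Maoa, monoamine oxidase A, read 14.53, 14.17 and 14.79 in PBS, against 7.09, 4.82 and 6.56 in MBELN. Cdhr5 and Cdh17 are cadherins of the gut epithelium. Among the members with a range that wide, r ran from 0.941 for Atoh1 and 0.964 for Klk1 to 0.999 for Muc2, and Spdef had a narrower range.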

How the data were processed

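RNA from 3 PBS and 3 MBELN samples, 90 ng each per the labels' protocols, was hybridised to arrays of 1 colour. The same label names an AmpliSeq assay, which was not resolved. The values the authors deposited, 1 for each probe set in each array, were read as log2 because none was below 0 and the highest was 19.93. The submitters' processing notes name Transcriptome Analysis Console 4.0. How values were summarized and normalized, and on which build, is not given in the sources used here.

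Array controls, 6640 of 28846 probe sets, were left out. Symbols came from the platform annotation: 19572 transcript probe sets had 1 symbol, 0 several and 2634 none, and 0 symbols changed through Entrez identifiers. For a gene with several probe sets the one with the highest mean was used. MBELN was compared with PBS with limma 3.58.1 (lmFit, eBayes; R 4.3.3) on the deposited values of all 6 arrays, two-sided, without covariates, with Benjamini-Hochberg adjustment over 22206 probe sets. The fit had 4 residual and 1.66 prior degrees of freedom. An at-least fold sets the PBS mean against the mean receptor level of the MBELN arrays, for a gene below that level in all 3. It does not allow for the spread of the PBS arrays. Members, gene and marker lists and motifs were chosen with earlier results of these data known. Named genes were the members, up to 4 genes of smallest p per list, relatives, the 5 nearest genes and tissue markers. In 5 rounds of simulated data over 22206 probe sets of this comparison, 95.3%, 89.9%, 69.3% and 37.7% of falls by 12, 8, 4 and 2 log2 units were recovered. The simulated errors were independent between probe sets and had the same variance in both groups. Simulated falls had no floor, so values could drop below 1.45, the lowest deposited value. The deposited arrays differ in tissue markers within a group, so these shares may not hold for them. Alternatives were other scalings, filters, variance models, array weights, blocks, thresholds, probe set choices and arrays left out. Figures were drawn with matplotlib 3.10.9.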

Additional observations from a re-analysis of the deposited data

How the results depend on the processing

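Of 19 alternatives, 13 moved the differences of goblet cell genes, and 130 moved values all stayed below 0. In the 17 that could end a call, 20 of 170 calls were lost. The 20 lost calls were those of Spdef and Atoh1, 7 each, and Zg16, 6. The number of genes called was 10 with array weights, a trended robust variance, median centring, quantile normalization and without dim probe sets, 8 with a block for the hybridisation controls and 7 at an adjusted p of 0.01. It ran from 7 to 10 with 1 array left out. Over all probe sets, 1150 passed, against 5757 with array weights, 4174 among arrays with bright hybridisation controls, 7234 among those with dimmer ones, 6769 without PBS 2 and MBELN 2, 407 at an adjusted p of 0.01 and 1772 at 0.1, and 377 to 3738 with 1 array left out. Of the 64 other goblet and mucus genes, 20 passed, against 35, 37, 42, 37 and 6 in the first 5 of these settings and 6 to 24 with 1 array left out. The cause was not tested. With the replicate number as a block, 456 probe sets, 7 goblet cell genes and 7 of the other genes passed. Deviations of arrays of the same number correlated at -0.03, -0.07 and -0.06, and those of different numbers at -0.09 to 0.08. As arrays of a group differed in tissue markers, these values cannot decide whether the numbers pair the arrays. The labels do not say so, and the main fit used no pairing. The signal of dim probe sets limits the values of Spdef, Atoh1 and most MBELN arrays.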

Other observations

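Markers of other cell types near goblet cells were also measured, with lists chosen in knowledge of earlier results. Enteroendocrine genes, which mark hormone-making cells of the secretory lineage, had medians of 7.89, 5.67 and 7.87 in PBS 1, 2 and 3 and of 4.08, 3.64 and 3.56 in MBELN 1, 2 and 3. Of 7 such genes, 6 were lowest in PBS 2 among the PBS arrays. The medians do not show Cck, Chgb and Chga, which were highest of all arrays in MBELN 2, at 19.01, 11.97 and 10.05. Their PBS values lay between 4.16 and 7.89. Tuft cell genes, 5 measured, had medians of 5.09, 3.03 and 4.71 in PBS and 2.84 to 3.15 in MBELN. Of these 5, Dclk1 read 16.69 in MBELN 2 against 3.03 to 5.37 in PBS, and Alox5ap read 8.16 and 8.40 in MBELN 1 and MBELN 3 against 4.84 to 6.65 in PBS. Immune cell genes, 6 measured, had medians of 6.37 to 8.43 in PBS and 5.46 to 6.89 in MBELN.

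Gastric markers, 6 measured and including Muc5ac and Tff1, had medians of 2.76 to 3.12 in all 6 arrays, with 1 gene above the receptor level in PBS 1 and 0 in each other array. Pancreatic acinar genes, 7 measured, had medians of 9.19 in PBS 1, 4.22 in PBS 2 and 8.68 in PBS 3 and of 3.24 to 4.32 in MBELN. Of these 7 genes, 6 were lowest in PBS 2 among the PBS arrays. No test is given for these lists.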
